A study of Mus musculus with 19 samples.

Results

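miR-10a and miR-10b are 2 microRNAs (miRNAs) made from the hairpin genes Mir10a and Mir10b. They were selected on read counts of these sperm libraries, in which they are among the most abundant miRNAs, so their high rank is a description and carries no test. Both hairpins belong to the 2159 hairpins that received at least 1 read in the series and to the 453 hairpins with 50% or more of their reads between 20 and 24 nt. Their reads were those of 20 to 24 nt that matched either hairpin in the sense direction with at most 1 mismatch and matched no other hairpin better. This gave 3129646 reads of Mir10a and 2563150 reads of Mir10b in 1535 distinct sequences over the 19 libraries.

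The libraries held small RNA of mature sperm from the cauda epididymis of wild-type C57BL/6J mice. The males were 8 weeks old at the start and were gavaged daily for 4 weeks with corn oil alone (control) or with corn oil carrying dicyclohexyl phthalate (DCHP), a plasticizer. Sperm were treated with a somatic cell lysis buffer, and RNA of 15 to 50 nt was cut from a gel. The RNA was sequenced either as it was (traditional RNA-seq) or by PANDORA-seq, in which T4 polynucleotide kinase repairs RNA ends and the demethylase AlkB removes methyl groups before the library is made. There were 4 PANDORA-seq control libraries, 5 PANDORA-seq DCHP libraries, 5 traditional control libraries and 5 traditional DCHP libraries. Exposure status was taken from the sample titles, since the treatment field gives DCHP gavage for all 19 libraries. The study describes the PANDORA-seq libraries as replicates from separate mice and states that sperm RNA of the sires went through both methods. Neither it nor the labels tie each traditional library to a mouse, so p-values measure the spread between these libraries.

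A miRNA is cut from a hairpin precursor, and 1 strand of the resulting duplex is loaded into an Argonaute protein. Bases 2 to 8 of that strand, the seed, pair with target mRNAs, so a molecule that starts 1 base further in has another seed. The genes of the miR-10 family lie inside the Hox clusters, which pattern the body axis, and the family is known for regulating Hox mRNAs. Sperm carry miRNAs from the testis and take up others during passage through the epididymis.

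Mir10a (ENSMUSG00000065519.1) lay at chr11:96317165-96317274 on the plus strand of GRCm38, between Hoxb5, which ended 11043 bp before it, and Hoxb4, which began 992 bp after it, in no exon of another gene. Mir10b (ENSMUSG00000065500.3) lay at chr2:74726070-74726137 on the plus strand, within the Hoxd3 and Hoxd4 genes and in no annotated exon of either. Their 5p strands share the seed and differ at a single position (U12A, miR-10a first, counted from the 5′ end), and their 3p strands differ at 3 positions. The RefSeq mature sequences are shown because every measurement below rests on telling these paralogs apart; capitals mark the seed, bases 2 to 8. Both 5p strands are 23 nt long, and on the same build they lie at chr11:96317186-96317208 and chr2:74726074-74726096.
miR-10a-5p: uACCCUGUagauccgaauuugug
miR-10b-5p: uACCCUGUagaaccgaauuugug
miR-10a-3p: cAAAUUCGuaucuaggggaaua
miR-10b-3p: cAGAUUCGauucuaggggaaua

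The most abundant read sequences did not span the whole annotated strand. They are shown because they carry the difference between the paralogs: start and end positions are counted from the RefSeq mature ends, so a start of +1 lies 1 base inside the 5′ end and an end of -2 lies 2 bases short of the 3′ end. Capitals again mark bases 2 to 8 of each read. The first read of each paralog starts at the mature 5′ base and ends at -2, and the second starts at +1 and ends at -1; all 4 reads are 21 nt long.
Mir10a, mature start: tACCCTGTagatccgaatttg
Mir10a, start +1: aCCCTGTAgatccgaatttgt
Mir10b, mature start: tACCCTGTagaaccgaatttg
Mir10b, start +1: aCCCTGTAgaaccgaatttgt
In the 10 traditional libraries the mature-start read made up 40.5% ± 1.69 (SD, n = 10) of Mir10a reads and the +1 read 13.9% ± 1.14. For Mir10b these shares were 52.6% ± 1.73 and 6.29%. In the 9 PANDORA-seq libraries the mature-start read held 52.4% ± 4.05 of Mir10a reads and 62.0% ± 4.34 of Mir10b reads. The read starting at +1 has the seed CCCTGTA in place of ACCCTGT, and it was the second most abundant Mir10a sequence but only the fourth most abundant Mir10b sequence in the traditional libraries.

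The depth of the libraries set the precision of each method. Total reads ran from 21588335 to 56506344 per library, with no separation between methods. Reads of 20 to 24 nt on the 453 miRNA hairpins, called miRNA reads here, numbered 959446 to 8146852 in the traditional libraries, 3.96% to 15.6% of all reads. They numbered 5816 to 46900 in the PANDORA-seq libraries, 0.0229% to 0.106%. Mir10a had 116660 to 655808 reads per traditional library and 858 to 3901 per PANDORA-seq library. The counting error of a single PANDORA-seq library was therefore 1.60% to 3.41% of the Mir10a value and 1.94% to 4.26% of the Mir10b value, against 0.123% to 0.331% in the traditional libraries. Reads carry no molecular identifiers, so these errors, the Wilson interval and the limits for 0 reads given here cover counting error only.

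Nearly all reads on both hairpins were of miRNA length. Pooled over libraries, reads of 20 to 24 nt held 95.01% (PANDORA-seq) and 94.7% (traditional RNA-seq) of Mir10a reads, and 97.2% and 96.9% of Mir10b reads. Just outside the limit, reads of 19 nt made up 3.13% and 3.53% for Mir10a, and just inside it reads of 20 nt made up 12.9% and 15.6%. At the long end, reads of 24 nt held 0.119% and 0.105% of Mir10a reads and those of 25 nt held 0.0233% and 0.00998%.

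Together the paralogs accounted for 10.7% to 34.5% of miRNA reads in each of the 19 libraries. Among the 453 miRNA hairpins, Mir10a ranked between 1 and 4 in every library and Mir10b between 2 and 6. Mir10a led in 3 libraries, Mir148a in 11 and Mir122, a miRNA of hepatocytes, in 5. The Mir122 share varied widely, from 1.30% to 43.2%, and within each group it was highest in replicate 2. Since levels are shares, this weighs on the paralogs' values and the levels without Mir122 in the total are given beside them.

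In the PANDORA-seq control libraries Mir10a made up 14.8%, 9.87%, 16.7% and 14.3% of miRNA reads in replicates 1 to 4. In the PANDORA-seq DCHP libraries it made up 18.9%, 11.1%, 14.8%, 14.8% and 7.90% in replicates 1 to 5. The lowest and the highest PANDORA-seq values both belonged to exposed libraries, and the 2 groups overlapped over the whole control range. The traditional control libraries had 11.3%, 5.81%, 19.2%, 17.5% and 18.3%, and the traditional DCHP libraries 15.5%, 12.2%, 13.5%, 13.3% and 9.92%. Here the controls spanned the wider range, with replicate 2 lowest, and enclosed every exposed value.

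Mir10b followed Mir10a from library to library. It made up 9.46%, 6.70%, 10.3% and 9.41% of miRNA reads in the PANDORA-seq controls and 11.4%, 7.01%, 11.7%, 10.7% and 5.69% in the PANDORA-seq DCHP libraries. In the traditional controls it held 9.69%, 4.87%, 15.3%, 14.7% and 14.5%, and in the traditional DCHP libraries 12.4%, 9.53%, 11.5%, 11.2% and 7.88%. Every library held less Mir10b than Mir10a, and the libraries that were low in one paralog (replicate 2 of all 4 groups and DCHP replicate 5 by both methods) were low in the other.

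The Mir10a means were 13.9% ± 2.89 (SD, n = 4), 13.5% ± 4.19 (n = 5), 14.4% ± 5.71 (n = 5) and 12.9% ± 2.05 (n = 5) in PANDORA-seq control, PANDORA-seq DCHP, traditional control and traditional DCHP libraries. The Mir10b means in the same order were 8.97% ± 1.57, 9.30% ± 2.76, 11.8% ± 4.49 and 10.5% ± 1.79. Without Mir122 in the total, the Mir10a means were 15.3% ± 1.52, 14.7% ± 4.03, 16.3% ± 3.89 and 14.1% ± 2.40, and the Mir10b means 9.91% ± 0.582, 10.1% ± 2.62, 13.4% ± 2.95 and 11.5% ± 2.05. The SD of the 2 control groups narrowed and the order of the group means stayed the same for each paralog. With the groups ordered by their mean, no neighbours in that order differed by more than the larger of their SDs, with or without Mir122. The control groups of the 2 methods, not neighbours for Mir10b, did differ by more without Mir122, at 9.91% and 13.4%, and the edgeR fit with that total gave -0.44 (SE 0.28, adjusted p = 0.237).

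**Figure D1:**
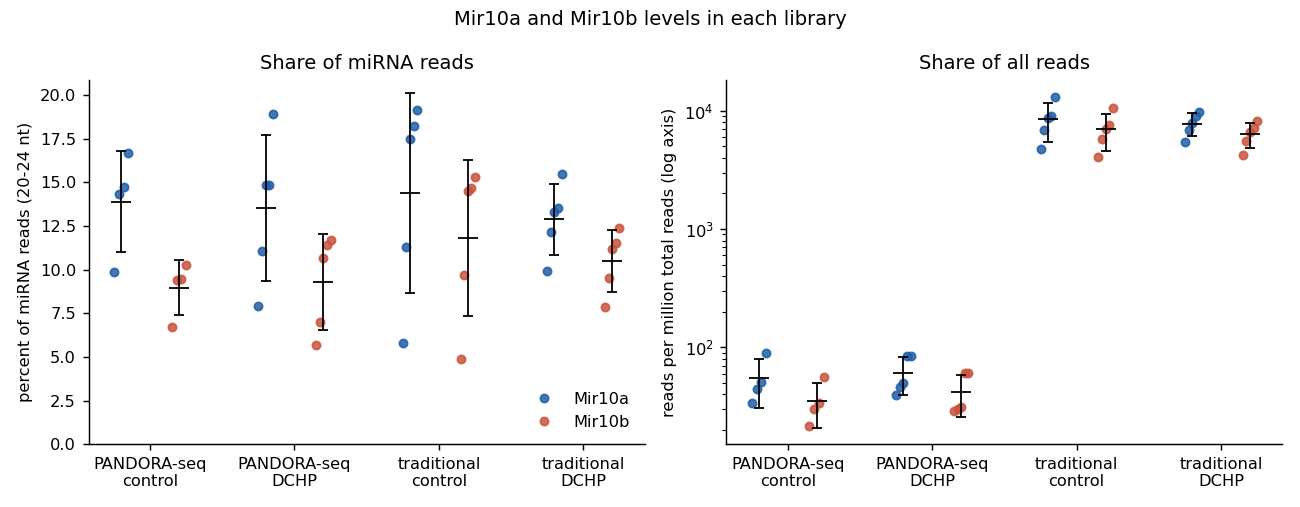
Mir10a and Mir10b in each of the 19 libraries as a percent of miRNA reads (left, linear axis) and as reads per 1000000 total reads (right, log axis), by group, with points for libraries and black marks for the group mean ± SD. On the left the 4 groups overlap, with means between 12.9% and 14.4% for Mir10a and between 8.97% and 11.8% for Mir10b, while on the right the PANDORA-seq libraries reach at most 90.2 and the traditional libraries at least 4083 reads per 1000000 total reads.

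The first question was whether DCHP exposure of the sires went with a change in these miRNAs. It could not be seen in either. In PANDORA-seq the log2 fold change of DCHP against control was -0.042 (SE 0.51, adjusted p = 0.988 by edgeR, 95% interval -1.06 to 0.98) for Mir10a and 0.052 (SE 0.50, adjusted p = 0.988, interval -0.94 to 1.05) for Mir10b. In traditional RNA-seq it was -0.16 (SE 0.36, adjusted p = 0.952 by edgeR, interval -0.92 to 0.60) and -0.17 (SE 0.35, adjusted p = 0.952, interval -0.92 to 0.58). The intervals span about 1 log2 unit on either side in PANDORA-seq, so smaller changes were not detectable with these libraries.

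None of the 2 members passed the threshold of an adjusted p below 0.1 with a fold change above 2, and neither did any other hairpin. In PANDORA-seq 0% of the 180 hairpins tested were called by edgeR, with 9 at an unadjusted p below 0.05 and 0 called by DESeq2. In traditional RNA-seq 0% of 418 were called, with 29 at an unadjusted p below 0.05 and 2 called by DESeq2, neither of them a member. The median log2 fold change of all hairpins was 0.024 and 0.17 by the respective method. The effect of DCHP did not differ detectably between the methods: the interaction was 0.12 (SE 0.53, adjusted p = 0.9998 by edgeR over 426 hairpins) for Mir10a and 0.22 (SE 0.53, adjusted p = 0.9998) for Mir10b.

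Other cell types could contribute miRNA to these samples, and in bulk RNA fewer cells of a type and less RNA per cell cannot be told apart. Defining miRNAs of sperm and late germ cells (Mir34b, Mir34c and Mir449a) summed to 767 to 3690 reads per 1000000 miRNA reads in traditional controls and 3047 to 6542 in traditional DCHP libraries. Those of epididymal epithelium, the miR-200 family of 5 hairpins, summed to 6024 to 21305 and 17824 to 47539. The ranges of the exposed libraries reached higher and overlapped those of the controls, and the lists were not tested. In PANDORA-seq the sperm list summed to 1584 to 3611 in controls, where Mir449a had 0 reads, and 2892 to 5821 in exposed libraries, and the epithelial list to 9801 to 12544 and 9832 to 39481. Muscle markers (4 hairpins, Mir143, Mir145a, Mir1a-1 and Mir133a-1) summed to 10832 to 27683 in PANDORA-seq controls and 15923 to 89211 in PANDORA-seq DCHP libraries, and to 28377 to 81463 and 31768 to 73619 in the traditional groups. Most of each sum was Mir143, at 10144 to 25553 in PANDORA-seq controls and 14722 to 88401 in PANDORA-seq DCHP libraries. Blood cell markers (5 hairpins, Mir451a, Mir144, Mir486, Mir223 and Mir142) summed to 1969 to 2923 and 927 to 3050 in PANDORA-seq, and to 645 to 954 and 439 to 837 in traditional RNA-seq. In PANDORA-seq nearly all of this was Mir486, with medians of 2016 and 1160 against 2205 and 1160 for the sums. The ranges of these sums overlapped between exposures. Of the 9 single markers tested in PANDORA-seq, 1 did not overlap between exposures, against 0.556% of all 180 hairpins: Mir34c, at 1199 to 2063 in controls and 2640 to 4989 in DCHP libraries. Of the 18 tested in traditional RNA-seq, 1 did not overlap, against 1.2% of all 418: Mir141, of the miR-200 family, at 8.78 to 17.5 and 19.3 to 80.6. Neither was called by edgeR. Mir133a-1 and Mir144 had 0 reads in PANDORA-seq and Mir223 in PANDORA-seq controls. The liver marker Mir122 ran from 12962 to 431833. The part of these cells in the paralogs' levels was not tested.

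The second question was how the 2 methods see the same miRNAs, which depends on the denominator. As shares of miRNA reads, neither paralog differed detectably between the methods: the log2 fold change of PANDORA-seq against traditional RNA-seq was -0.050 (SE 0.44, adjusted p = 0.946 by edgeR, interval -0.99 to 0.89) for Mir10a and -0.40 (SE 0.44, adjusted p = 0.483, interval -1.32 to 0.52) for Mir10b in controls. In DCHP libraries it was 0.069 (SE 0.38, adjusted p = 0.916 by edgeR, interval -0.72 to 0.86) and -0.18 (SE 0.38, adjusted p = 0.749, interval -0.95 to 0.60). Neither member was called in either comparison, where 49.9% of 343 hairpins (171) and 40.2% of 376 hairpins (151) were.

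The called hairpins were mostly higher in PANDORA-seq, 154 of 171 in controls and 147 of 151 in DCHP libraries, and the median of all hairpins tested was 1.096 and 0.70 on the log2 scale. Relative to that median, the Mir10a change was -1.15 in controls and -0.63 in DCHP libraries, and the Mir10b change -1.49 and -0.87. The hairpins tested were not limited to the 453 of the miRNA total. Reads of 20 to 24 nt averaged 66124 on all hairpins and 15350 on those 453 in PANDORA-seq controls. In traditional controls the means were 3.14e+06 and 3.10e+06. Mir6240, with a log2 fold change of 9.49 in controls, alone had more reads in PANDORA-seq than the miRNA total. A median or share called over all hairpins tested therefore does not describe miRNAs alone. With total reads as the denominator only 9 of 260 called hairpins in controls and 11 of 296 in DCHP libraries were higher in PANDORA-seq. Relative to the median under that denominator, which was -6.14 and -6.08, Mir10a was at -1.14 and -0.92 and Mir10b at -1.49 and -1.15.

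As shares of all reads, the paralogs were far lower in PANDORA-seq. Mir10a had 55.0 ± 24.6 (SD, n = 4) and 60.7 ± 21.5 (n = 5) reads per 1000000 total reads in PANDORA-seq control and DCHP libraries, against 8547 ± 3128 (n = 5) and 7779 ± 1713 (n = 5) in traditional libraries. Mir10b had 35.3 ± 14.5 and 42.3 ± 16.6 against 7006 ± 2404 and 6355 ± 1525. No PANDORA-seq library reached the lowest traditional library. The edgeR log2 fold change was -7.28 for Mir10a and -7.63 for Mir10b in controls, or 155-fold and 198-fold lower, and -7.00 and -7.23 in DCHP libraries, or 128-fold and 150-fold lower, and all 4 passed the threshold. The size of the method difference thus moved with the denominator, and a difference in the amount of the miRNAs cannot be read from either share.

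**Figure D2:**
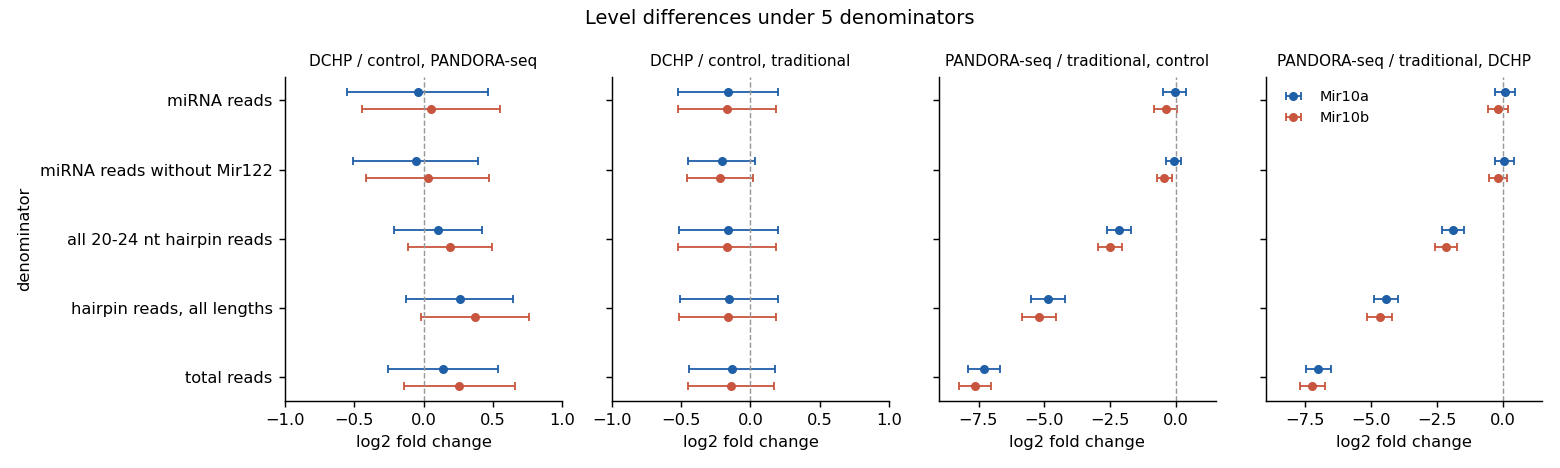
Log2 fold change of Mir10a and Mir10b (points, bars ± SE) in the 4 comparisons under 5 denominators named on the vertical axis. Exposure differences stay between -0.22 and 0.37 under each denominator, while the method differences move from -0.050 and -0.40 in controls on miRNA reads to -7.28 and -7.63 on total reads.

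The ratio of the paralogs needs no denominator, since both are counted in the same library. Mir10a reads outnumbered Mir10b reads in all 19 libraries. The PANDORA-seq controls had ratios of 1.56, 1.47, 1.62 and 1.52, and the PANDORA-seq DCHP libraries 1.66, 1.58, 1.27, 1.39 and 1.39. The traditional controls had 1.17, 1.19, 1.25, 1.19 and 1.26, and the traditional DCHP libraries 1.25, 1.28, 1.17, 1.19 and 1.26. All 4 PANDORA-seq controls exceeded every traditional library, whereas replicate 3 of the PANDORA-seq DCHP libraries, at 1.27, fell within the traditional range. In that library Mir10a was 55.9% of the paralogs' reads, with a 95% Wilson interval of 54.0% to 57.7%.

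The mean ratio was 1.54 ± 0.0625 (SD, n = 4) in PANDORA-seq controls and 1.21 ± 0.0404 (n = 5) in traditional controls. On the log2 scale the methods differed by 0.35 in controls (two-sided exact permutation p = 0.00794, adjusted p = 0.0317 over 4 comparisons). In DCHP libraries, with means of 1.46 ± 0.160 and 1.23 ± 0.0452 (n = 5 each), they differed by 0.24 (exact permutation p = 0.0159, adjusted p = 0.0317). Libraries with the same number deviated together across methods, and with libraries paired by number the differences were 0.36 and 0.24 with an exact sign-flip p of 0.125 and 0.0625, adjusted 0.25 for both. Those are the smallest p-values that 4 and 5 pairs allow, so the paired design cannot pass the threshold. Without any 1 traditional control library the adjusted p of the control difference was 0.0571. The exact p was then the smallest that 4 against 4 libraries allow, so this value could not pass and shows no dependence on a library. DCHP against control gave -0.090 in PANDORA-seq (exact permutation p = 0.333, adjusted p = 0.444) and 0.021 in traditional RNA-seq (exact permutation p = 0.5, adjusted p = 0.5).

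In the traditional libraries the excess of Mir10a sat in reads that start 1 base inside the mature 5′ end. The split by start was made after the values were seen and is given as a description, over reads that end between -2 and +1. Among reads with the mature start the ratio was 0.947 ± 0.0336 in traditional controls and 0.950 ± 0.0400 in traditional DCHP libraries (SD, n = 5 each), so Mir10b outnumbered Mir10a in all 10 libraries. Among reads that start at +1 it was 2.84 ± 0.109 and 2.79 ± 0.202. In PANDORA-seq the mature-start ratio was 1.30 ± 0.0413 (n = 4) and 1.21 ± 0.158 (n = 5), and the +1 ratio 4.04 ± 0.669 and 3.47 ± 0.861. Which paralog was the more abundant in traditional RNA-seq thus turned on whether molecules with the shifted seed were counted.

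**Figure D3:**
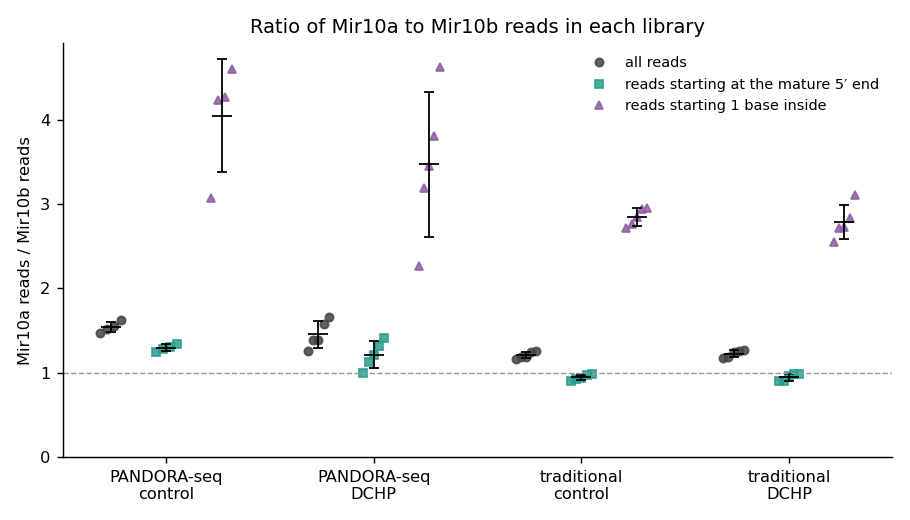
Ratio of Mir10a to Mir10b reads in each of the 19 libraries by group, for all reads of 20 to 24 nt, for reads with the mature start and for reads starting at +1, with points for libraries, black marks for the group mean ± SD and a dashed line at equal reads. Over all reads the PANDORA-seq controls lie between 1.47 and 1.62 and the traditional libraries between 1.17 and 1.28, while among mature-start reads the traditional libraries lie below 1 and among +1 reads every group mean is at least 2.79.

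The share of reads starting at +1 set the paralogs apart in every library. Of Mir10a 5p reads it was 32.9%, 30.1%, 30.7%, 31.8% and 32.9% in traditional controls and 33.7%, 31.9%, 33.0%, 34.8% and 36.1% in traditional DCHP libraries. Of Mir10b 5p reads it was 14.1%, 13.0%, 13.0%, 13.3% and 14.1%, and 14.9%, 13.1%, 14.2%, 15.2% and 17.8%. Every Mir10a value exceeded every Mir10b value, and DCHP replicate 5 had the highest share of both paralogs. Across the 10 traditional libraries the shares were 32.8% ± 1.81 and 14.3% ± 1.47 (SD, n = 10), a within-library difference of 18.5 percentage points that ranged from 17.1 to 19.6 (exact sign-flip permutation p = 0.00195, adjusted p = 0.00488 over 20 within-library comparisons). These within-library comparisons were added after the values were seen.

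PANDORA-seq gave the same order at lower mean shares. Mir10a had 23.1%, 25.97%, 23.4% and 23.5% in controls and 22.5%, 25.2%, 29.5%, 29.8% and 31.97% in DCHP libraries. Mir10b had 8.45%, 12.5%, 8.23% and 8.42%, and 8.07%, 10.5%, 10.8%, 13.0% and 19.5%. DCHP replicate 5 was again highest for both paralogs, and its Mir10b share was above every traditional value. The means over 9 libraries were 26.1% ± 3.47 and 11.04% ± 3.67 (SD), and the difference of 15.1 percentage points (range 12.5 to 18.7) had the same sign in 9 of 9 libraries (exact sign-flip permutation p = 0.00391, adjusted p = 0.00488).

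**Figure D4:**
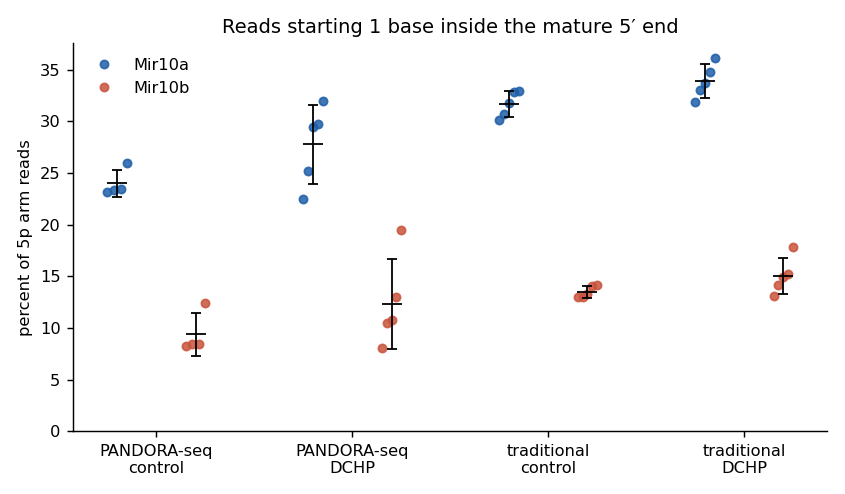
Percent of 5p reads that start 1 base inside the mature 5′ end, for Mir10a and Mir10b in each of the 19 libraries (points), by group, with black marks for the group mean ± SD. Mir10a lies between 22.5% and 36.1% and Mir10b between 8.07% and 19.5%, and Mir10a is above Mir10b in each library.

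Reads that start 1 base before the mature 5′ end were rare and also differed. They made up 0.591% of Mir10a and 0.0435% of Mir10b 5p reads in traditional libraries, and 0.514% and 0.0469% in PANDORA-seq, with Mir10a higher in 10 of 10 and 9 of 9 libraries. Mir10a also had more reads of 20 nt, 16.4% against 10.8% in traditional RNA-seq and 13.8% against 8.47% in PANDORA-seq. The mean length of 5p reads nevertheless differed little, at 21.12 and 21.20 nt in traditional libraries. A last base of A or T that the hairpin does not encode, counted as an added base, was found on 0.286% and 0.285% of reads in traditional libraries (exact sign-flip permutation p = 0.926) and on 0.285% and 0.403% in PANDORA-seq (p = 0.125, exact). A misread last base is counted here too, and an added base that matches the hairpin is not.

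Molecules that started further in also ended further out. Among traditional Mir10a reads ending between -2 and +1, 27.2% ± 1.72 of those with the mature start and 69.0% ± 2.39 of those starting at +1 ended at -1 or later (SD, n = 10). For Mir10b the shares were 26.8% ± 1.31 and 80.5% ± 1.27. The differences of 41.8 and 53.7 percentage points were of 1 sign in all 10 libraries, and in PANDORA-seq those of 39.5 (21.2% ± 2.04 against 60.7% ± 4.65) and 50.5 (21.9% ± 1.12 against 72.4% ± 4.03) in all 9.

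The paralogs differed in their ends among reads starting at +1, and no difference was detected among those with the mature start. Among mature-start reads the paralogs differed by 0.397 percentage points in traditional RNA-seq (exact sign-flip permutation p = 0.178) and by -0.715 in PANDORA-seq (exact p = 0.242), Mir10a minus Mir10b. Among +1 reads the difference was -11.5 in traditional RNA-seq (exact sign-flip permutation p = 0.00195, adjusted p = 0.00488) and -11.7 in PANDORA-seq (exact p = 0.00391, adjusted p = 0.00488). The most frequent end of +1 reads was -1 in traditional libraries, with 46.1% for Mir10a and 48.3% for Mir10b, and the full 3′ end held 22.5% and 31.6%.

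**Figure D5:**
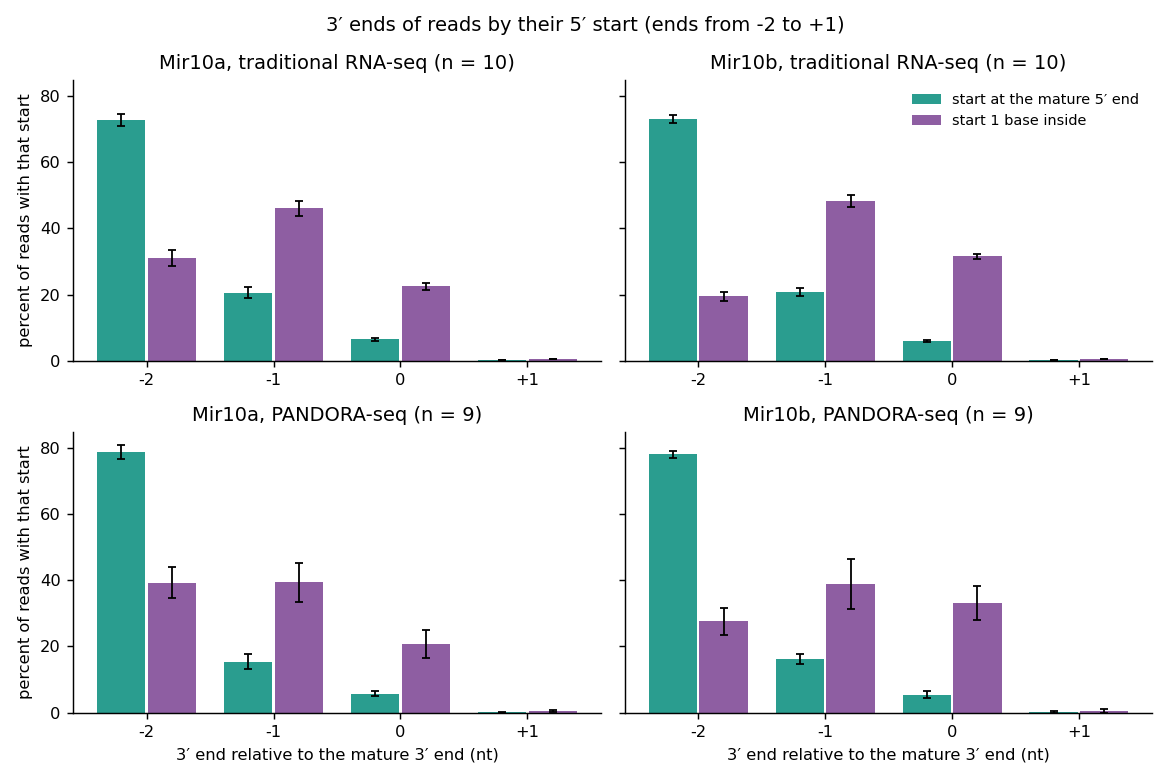
Percent of reads at each 3′ end from -2 to +1, counted from the mature 3′ end, for reads with the mature start and reads starting at +1, in 1 panel per paralog and method (bars, mean; error bars, SD over 10 traditional or 9 PANDORA-seq libraries). Reads with the mature start end mostly at -2 (72.8% for Mir10a and 73.2% for Mir10b in traditional RNA-seq), and reads starting at +1 end there in 31.0% and 19.5%.

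The ends were then compared between methods and exposures in 32 tests of 4 measures per paralog, the 3p arm share, the mature-start share, the mean 5p length and the added A or T. At an adjusted p below 0.05, 0 of the 32 exact permutation tests passed, and 8 had an unadjusted p below 0.05. The smallest exact permutation p possible, 0.00794, had an adjusted p of 0.0508 here, so even groups without overlap did not pass. The count of 0 therefore does not show that the ends were alike. The largest differences were in the mature-start share, which was higher in PANDORA-seq. For Mir10a it was 75.3% ± 1.30 (SD, n = 4) in PANDORA-seq controls against 67.6% ± 1.29 (n = 5) in traditional controls, and 71.7% ± 3.82 against 65.4% ± 1.59 in DCHP libraries (n = 5 each). The groups did not overlap in either pair (exact permutation p = 0.00794, the smallest these designs allow, adjusted p = 0.0508). For Mir10b it was 90.6% ± 2.03 against 86.4% ± 0.579 in controls, again without overlap (exact permutation p = 0.00794, adjusted p = 0.0508), and 2.66 percentage points higher in DCHP libraries (exact permutation p = 0.238). Without PANDORA-seq DCHP replicate 5, which had the highest +1 shares of its group, the difference in the DCHP libraries was 7.29 percentage points for Mir10a and 4.43 for Mir10b, and both passed when libraries were treated as unpaired (exact permutation p = 0.00794, adjusted p = 0.0423). Replicate 5 is named here for its values on this same measure, and the p is again the smallest possible. These passes are therefore a description and no support for a difference. Paired by number, the 4 pairs left could not go below an exact p of 0.125, and over all pairs the paired differences of both paralogs in both exposure groups had an adjusted p of 0.333.

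The mean mature-start shares of both paralogs were lower in DCHP than in control libraries by both methods, and no difference passed. The groups overlapped in each case. In PANDORA-seq, DCHP replicate 1 had the highest share of any library for both paralogs, 76.9% for Mir10a and 91.7% for Mir10b. In traditional RNA-seq the difference of DCHP from control was -2.22 percentage points for Mir10a (exact permutation p = 0.0397, adjusted p = 0.181) and -1.55 for Mir10b (exact permutation p = 0.0714, adjusted p = 0.254). In PANDORA-seq the differences were -3.62 (exact permutation p = 0.127) and -3.02 (exact permutation p = 0.254). The Mir10b differences rested largely on DCHP replicate 5: without it they were -0.846 in traditional RNA-seq and -1.25 in PANDORA-seq. The epithelial and sperm marker sums given above reached higher in the same exposed groups by both methods, as did the muscle sums in PANDORA-seq, and their part was not tested.

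The 3p strand, the other arm of the duplex, was almost absent, at no more than 0.0810% of either paralog's reads in any library. In traditional RNA-seq it held 0.0256% ± 0.00873 of Mir10a reads in controls and 0.0461% ± 0.0151 in DCHP libraries (n = 5 each, exact permutation p = 0.0397, adjusted p = 0.181). In PANDORA-seq 8 libraries had 0 reads of miR-10a-3p, which allows a share of up to 0.0769% to 0.350% depending on the library, and 8 had 0 reads of miR-10b-3p, which allows up to 0.112% to 0.545%. These limits lie above the mean 3p shares of the traditional groups, so a difference between the methods was not detectable at this depth, whatever the p of a test on those zeros.

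Other miRNAs of the Hox clusters and the related miR-99 and miR-100 hairpins were counted for comparison, 7 in all. The miR-196 hairpins lie in the Hox clusters and their miRNA represses Hoxb8, and Mir615 lies in the Hoxc cluster. In traditional RNA-seq 0 of 7 were called between DCHP and control, with 6 higher, a list median of 0.60 and a median of 0.17 over all hairpins. Mir196b had the largest difference, 101 against 42.4 reads per 1000000 miRNA reads (log2 fold change 1.27, SE 0.43, adjusted p = 0.587 by edgeR). In PANDORA-seq 0 of the 3 tested were called, with a median of 0.095.

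Between methods, 4 of the 6 tested were higher in PANDORA-seq controls and 3 of them were called, against 49.9% of all hairpins called. The share over all hairpins includes hairpins outside the miRNA total. The 3 were Mir196a-1 (log2 fold change 2.76, adjusted p = 0.00214 by edgeR), Mir196a-2 (2.96, adjusted p = 0.00139) and Mir196b (2.11, adjusted p = 0.0161), and the first 2 share a mature sequence and its reads. They had 211, 211 and 174 reads per 1000000 miRNA reads in PANDORA-seq controls, which held only 5816 to 23357 miRNA reads each. All 3 fell below the count filter in the PANDORA-seq exposure comparison. Their method differences therefore rest on very few PANDORA-seq reads. In DCHP libraries 0 of 7 were called, against 40.2% of all hairpins, and 5 of 7 were higher in PANDORA-seq. Mir99a, the most abundant of the list, had 5011, 3880, 2945 and 3333 reads per 1000000 miRNA reads in PANDORA-seq control, PANDORA-seq DCHP, traditional control and traditional DCHP libraries, far below either member.

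Across the 10 traditional libraries the hairpin whose level was most like that of Mir10a was Mir10b, with a Pearson r of 0.996 of log2 reads per 1000000 miRNA reads among 132 other hairpins with at least 100 reads in each library. Mir182 (0.971), Mir183 (0.963), Mir871 (0.923) and Mir151 (0.911) came next, and the same 4 led the list for Mir10b at 0.983, 0.974, 0.923 and 0.932. In the 9 PANDORA-seq libraries the paralogs had an r of 0.948, and the other 4 had 0.561, -0.114, 0.756 and 0.503 with Mir10a, with as few as 7 to 23 reads in a library. The points share each library's miRNA total, in which Mir122 varies widely, and both exposure groups, so these values are descriptions.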

How the data were processed

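The deposited files held counts: each distinct read sequence, its length and the number of reads with it in that library, as the authors counted them. The authors sequenced 15 to 50 nt RNA, trimmed adapters and annotated reads with SPORTS1.1; the submitters' processing notes name the build mm10. The files hold reads of 15 to 45 nt, and all 19 were used.

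Each sequence was matched here to 2198 GENCODE hairpins (GRCm38; 2202 less 4 that hold a tRNA locus), sense strand, without gaps, with at most 1 mismatch and the best match kept. Reads matching several hairpins equally were split between them. miRNA reads, the library size, were the 20 to 24 nt reads on hairpins with at least 50% of their reads in that range. Levels were tested by edgeR's quasi-likelihood test (version 4.0.16, R 4.3.3), fitted for each comparison on its 2 groups over all hairpins with at least 10 reads in at least 4 libraries, with split counts rounded. Hairpins were called at a fold change over 2 with a p under 0.1 after Benjamini-Hochberg adjustment. The study's limits have the same values but apply to samr q-values of single RNA sequences. Its calls and these are therefore not directly comparable. DESeq2 1.42.0 was an alternative. The intervals used the test's degrees of freedom. In simulated counts with 4-fold changes, edgeR recovered 77.1% to 92.5% of changed hairpins, with 2.03% to 4.6% of its calls false. The simulation used a single dispersion below those fitted to the 4 comparisons (0.206 to 0.314). It therefore does not give the recovery at the spread of these data or for smaller changes. Ratios and isomiR shares were compared by two-sided exact permutation tests, and paralogs within libraries by exact sign-flip tests (Python 3.11.15, pandas 2.3.3, NumPy 2.4.6, SciPy 1.17.1), each family adjusted by Benjamini-Hochberg with a threshold of 0.05.

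The members, gene lists, marker lists and named genes were chosen with earlier results of these data known. Named besides the members were 4 other Hox-cluster hairpins, 3 miR-99/100 hairpins, the 5 hairpins with the highest r per member, and the leading read sequences. The labels do not say whether a replicate number marks the same RNA in both methods, so pairing by number was used as an alternative. Deviations of same-numbered libraries correlated above 0.1 across methods in 4 of 4 control pairs (r 0.119 to 0.677) and 5 of 5 DCHP pairs (0.190 to 0.378). Across exposures this held in 2 of 4 and 0 of 5 pairs. Within groups, 36 library pairs were checked for duplicates, and the lowest chi-square per degree of freedom was 13.9, so none was merged. A base misread at the differing position can move a read between paralogs. Over other positions of reads with the mature start, the median share of the same misreads was 0.0667% (Mir10a) and 0.0419% (Mir10b) in traditional libraries. Alternatives changed the library size, filter, normalization, read lengths, mismatches, tied reads and libraries.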

Additional observations from a re-analysis of the deposited data

Results flagged for a closer look

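In groups of 4 or 5 libraries, 8 of 52 combinations of group and measure held 1 library whose gap to the nearest other exceeded Dixon's 95% limit, where chance gives about 1 in 20. Of these, 4 were PANDORA-seq control replicate 2: its mature-start share was 73.4% for Mir10a against 75.7% to 76.1% in the other controls, and 87.5% for Mir10b against 91.5% to 91.6%. Its +1 share was 25.97% for Mir10a against 23.1% to 23.5%, and 12.5% for Mir10b against 8.23% to 8.45%. Both measures describe the same reads, so these values are not separate observations and the count of 8 cannot be set against 1 in 20. In this library Mir122 held 27.5% of miRNA reads.

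The other 4 were single values. PANDORA-seq DCHP replicate 5 had 0.0810% of Mir10a reads on the 3p arm (3 reads) and PANDORA-seq control replicate 4 had 0.0525% of Mir10b reads there (1 read), where the other libraries of their groups had 0. A lone value above 0 among zeros exceeds the limit whatever its size. The mean length of Mir10a 5p reads in PANDORA-seq control replicate 1 was 21.1 nt (21.08 against 21.12 to 21.13 in the others). Mir10a reads with an added A or T made up 0.243% in traditional DCHP replicate 3, against 0.298% to 0.305%.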

How the results depend on the processing

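Neither member was called between DCHP and control under any alternative, with or without the replicate block. The sign of the Mir10a exposure difference in PANDORA-seq, which lies far inside its error, turned to 0.10 with all 20 to 24 nt hairpin reads as library size, 0.26 with hairpin reads of all lengths, 0.14 with total reads, 0.018 with TMM and 0.10 with the replicate block. TMM also gave the most negative exposure differences in traditional RNA-seq, -0.42 for Mir10a and -0.43 for Mir10b (adjusted p = 0.621 by edgeR for both, median of all hairpins -0.20). The interaction of exposure and method rose to 0.26 and 0.36 with all 20 to 24 nt hairpin reads, 0.28 and 0.40 with total reads and 0.49 and 0.59 with TMM, with adjusted p of 0.773 to 0.9998. The method comparisons turned on the library size. With all 20 to 24 nt hairpin reads, hairpin reads of all lengths, total reads, TMM and DESeq2's own size factors, Mir10a was called lower in PANDORA-seq at -2.17, -4.86, -7.28, -4.42 and -4.39 in controls and -1.91, -4.45, -7.00, -2.42 and -3.40 in DCHP libraries. Mir10b was called lower at -2.51, -5.21, -7.63, -4.76 and -4.75, and at -2.15, -4.68, -7.23, -2.66 and -3.64. Under these 5 settings 265, 324, 260, 331 and 308 hairpins were called in controls and 287, 354, 296, 339 and 363 in DCHP libraries, against 171 and 151. Without a count filter there were 531 and 466, and with at least 100 reads 62 and 42. Between exposures, no filter gave 1 call in PANDORA-seq, while DESeq2 gave 2 and exact matches 1 in traditional libraries. The Mir10a method difference, within its error, was 0.047 with exact matches and 0.16 with the replicate block in controls, and -0.040 with reads of 18 to 26 nt in DCHP libraries.

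With the replicate block the ratio differences of 0.24 (DCHP) and 0.36 (control) no longer passed, and the hairpins called between methods were 183 and 154; the block changed no other call of a member. Of 4 isomiR measures per comparison, exact matches passed 1 for Mir10a in DCHP libraries, 2 in controls, 1 for Mir10b in DCHP libraries and 2 in controls, and the logit scale 1, 2, 1 and 1; exact matches left fewer measures to test. In both settings, 1 pass for Mir10a in controls and the pass for Mir10b in DCHP libraries are on the 3p arm and rest on 0 PANDORA-seq reads, as does 1 pass of exact matches for Mir10b in controls. Small differences changed sign: mean length with reads of 18 to 26 nt (0.00768 and 0.00823 for Mir10a, 0.00609 and 0.0193 for Mir10b, DCHP then control), the PANDORA-seq exposure difference of Mir10b length with the block (0.000112), the Mir10b 3p share in controls (-0.0101 with exact matches, -4.31 on the logit scale) and the Mir10b added A or T (-0.14 on the logit scale in DCHP libraries). The causes were not tested.

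Leaving out 1 library at a time gave Mir10a differences of -0.19 to 0.10 (PANDORA-seq exposure), -0.36 to -0.036 (traditional exposure), -0.25 to 0.083 (method, controls) and -0.083 to 0.21 (method, DCHP), and Mir10b differences of -0.064 to 0.19, -0.37 to -0.058, -0.60 to -0.28 and -0.27 to -0.042. The ratio difference between methods ranged from 0.33 to 0.37 in controls and 0.19 to 0.29 in DCHP libraries, and between exposures from -0.14 to -0.040 and 0.0072 to 0.037. Called hairpins ranged from 0 to 2 (PANDORA-seq exposure, 2 without DCHP replicate 1), 150 to 188 and 144 to 155. IsomiR measures passed ranged from 0 to 2 for Mir10a (1 on the 3p arm, resting on 0 reads) and 0 to 1 for Mir10b in DCHP libraries. Ranges of mean length were -0.0141 to 0.000878, -0.00952 to 0.00311 and -0.0152 to 0.000743 for Mir10a (PANDORA-seq exposure, traditional exposure, method in controls) and -0.0166 to 0.00810 for Mir10b (PANDORA-seq exposure). Those of the Mir10b 3p share in controls were -0.0105 to 0.00700, and of added A or T between methods in DCHP libraries -0.0962 to 0.0118 and -0.0540 to 0.0946. PANDORA-seq depth limits every value under 1%, since 1 read is a visible share of 550 to 3901.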

Other observations

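Reads with 1 mismatch held a difference between the methods that the report does not use. Shares here are of reads with the mature start. In the traditional libraries 0.933% ± 0.0592 (SD, n = 10) of these Mir10a reads carried A11C (position from 1 at the mature 5′ end, hairpin base first). These were 19655 reads, and the share ranged from 0.838% to 1.01% between libraries. In the 9 PANDORA-seq libraries 2 reads carried A11C, a mean of 0.0112%. For Mir10b the same substitution was at 0.571% ± 0.0156 and 0.0103%, the latter again 2 reads. At position 2, A2C was at 0.482% of mature-start Mir10a and 0.540% of mature-start Mir10b reads in traditional RNA-seq and at 0.0373% and 0.0599% in PANDORA-seq. Changes were also counted per A of both paralogs in mature-start reads, without the position that differs between them. A-to-C changes held 0.314% ± 0.00451 (n = 10) in traditional and 0.0145% ± 0.0141 (n = 9, 18 reads) in PANDORA-seq libraries, ranging from 0.308% to 0.321% and from 0% to 0.0382%. A-to-G changes were at 0.336% and 0.268%, and T-to-C changes at 0.287% and 0.235%. These substitutions were singled out after their values were seen, no test was run, and whether they arose in the RNA, in the library or on the sequencer was not tested.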
